A study of Mus musculus with 16 samples.

Results

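The 10 genes described here encode neuropeptides made by cortical neurons (Sst, Cort, Npy, Vip, Cck, Tac1, Penk, Pdyn and Crh) and the neurotrophin BDNF (Bdnf), and they were picked by name from 55487 genes in an RNA-seq table of mouse cortex. WT male C57Bl6 mice, 2 months old, received LPS (2 mg/kg), a bacterial wall product that sets off systemic inflammation, or PBS into the peritoneum on 2 consecutive days, at ZT1 or at ZT13, and cortex was taken on the third day. ZT counts hours from lights-on, so ZT1 mice were treated early in the light phase and ZT13 mice early in the dark phase. Cortex was taken at the same time of day as the injections, so time of treatment and time of collection cannot be told apart. The groups were ZT1 PBS (n = 3), ZT1 LPS (n = 5), ZT13 PBS (n = 3) and ZT13 LPS (n = 5), 16 libraries of rRNA-depleted total RNA from whole pieces of cortex in which neurons, glia and vessels were not separated.

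Neuropeptides are cut from larger precursors inside dense-core vesicles and act on G protein-coupled receptors of nearby cells. In cortex Sst, Cort, Npy, Vip and Crh mark classes of GABAergic interneurons, Cck is made by one class of interneuron and by many excitatory neurons, and Penk, Pdyn and Tac1 are made by smaller cortical populations and, at far higher levels, by neurons of the striatum beneath. BDNF is released mainly by excitatory neurons, and transcription of its gene rises with synaptic activity. The cAMP response element (CRE) is the DNA motif bound by the activity-regulated factor CREB, which acts on several neuropeptide genes and on Bdnf.

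Each library held between 20251840 and 29112758 reads on genes, as read from the size of the smallest step in its values, which were reads on a gene scaled to a common library total of 1000000 (CPM). The treatment field of the labels went against the sample title in 12 of 16 libraries, and groups followed the titles. Gfap, an astrocyte gene that rises in brain inflammation, ranged from 111 to 123 CPM over the 6 libraries with PBS in their titles and from 572 to 1134 CPM over the 10 with LPS. Between the PBS groups the clock-controlled genes Dbp (log2 difference 1.10, ZT13 minus ZT1, adjusted p = 0.0085) and Ciart (1.45, adjusted p = 8.3e-04) were higher at ZT13, and the clock activator Arntl was lower (-0.60, adjusted p = 0.0034). Summed choroid plexus and meningeal markers ranged from 41.2 to 974 CPM over the libraries and overlapped between all 4 groups.

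All 10 members were measured in every library, with Cort the lowest at 16 to 90 reads, and all 10 passed the filter of 1 CPM in at least 3 libraries that left 18859 genes for testing. Per kilobase of annotated exon, the mean level in the 6 PBS libraries was highest for Sst (165 ± 7.63 CPM per kilobase, SD) and Cck (142 ± 7.29), whose ranges touched. Npy followed at 60.8 ± 2.31 CPM per kilobase and Penk at 33 ± 4.70, each clear of its neighbours. Cort (4.82 ± 0.57), Pdyn (4.71 ± 0.46), Vip (4.23 ± 0.48) and Bdnf (3.47 ± 0.64 CPM per kilobase) formed a run in which each range overlapped the next. Crh (2.05 ± 0.25 CPM per kilobase) and Tac1 (1.70 ± 0.24) were lowest, and their ranges overlapped each other but not that of Bdnf. In bulk tissue, fewer cells of a type and less RNA per cell cannot be told apart, and this holds for every value below.

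The 250 bases before the transcription start, which could be matched in RefSeq (GRCm38.p6) for 8 of 10 members, are shown for 4 genes that were lower after LPS and 2 that were higher, since CREB-linked motifs often lie close to transcription starts. Capitals mark the CRE (TGACGTCA), the shorter motif TGACG that is also contained in the CRE, and the E-box CACGTG, each searched on both strands, so that CGTCA is the shorter motif read from the other strand. Starts are those of RefSeq, which can differ from the GENCODE gene ends given with each gene.
Sst (minus strand, chr16:23890845-23891094): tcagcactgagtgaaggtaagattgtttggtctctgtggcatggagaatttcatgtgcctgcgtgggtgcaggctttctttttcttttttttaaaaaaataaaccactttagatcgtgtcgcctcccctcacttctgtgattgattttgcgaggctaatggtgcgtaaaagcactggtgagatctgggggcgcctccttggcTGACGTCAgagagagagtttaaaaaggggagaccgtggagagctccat
Cort (minus strand, chr4:149126764-149127013): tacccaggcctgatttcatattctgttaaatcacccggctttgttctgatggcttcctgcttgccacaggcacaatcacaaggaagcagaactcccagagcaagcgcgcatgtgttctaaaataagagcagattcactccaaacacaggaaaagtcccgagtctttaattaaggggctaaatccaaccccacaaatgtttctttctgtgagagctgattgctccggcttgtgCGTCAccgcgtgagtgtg
Cck (minus strand, chr9:121495695-121495944): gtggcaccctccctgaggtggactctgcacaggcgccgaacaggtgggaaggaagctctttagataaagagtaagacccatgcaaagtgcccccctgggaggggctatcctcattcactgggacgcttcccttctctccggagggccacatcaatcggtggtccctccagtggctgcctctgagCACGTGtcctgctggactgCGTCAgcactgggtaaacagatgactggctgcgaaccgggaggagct
Bdnf (plus strand, start 3 of 7, chr2:109692186-109692435): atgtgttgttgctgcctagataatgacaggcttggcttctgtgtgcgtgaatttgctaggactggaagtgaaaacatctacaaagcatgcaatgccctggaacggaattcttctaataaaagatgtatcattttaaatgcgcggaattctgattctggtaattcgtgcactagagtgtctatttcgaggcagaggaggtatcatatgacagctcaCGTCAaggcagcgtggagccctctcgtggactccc
Vip (plus strand, chr10:5638968-5639217): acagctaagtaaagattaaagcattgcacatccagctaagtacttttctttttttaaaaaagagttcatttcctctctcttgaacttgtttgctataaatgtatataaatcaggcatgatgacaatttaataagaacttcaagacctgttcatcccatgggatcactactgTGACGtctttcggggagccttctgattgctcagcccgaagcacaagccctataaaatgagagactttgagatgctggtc
Pdyn (minus strand, start 1 of 2, chr2:129699939-129700188): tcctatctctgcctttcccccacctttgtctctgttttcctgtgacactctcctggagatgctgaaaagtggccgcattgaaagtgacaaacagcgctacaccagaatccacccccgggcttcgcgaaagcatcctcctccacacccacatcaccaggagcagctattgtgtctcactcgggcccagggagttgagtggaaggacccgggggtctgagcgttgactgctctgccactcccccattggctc
Sst held the only whole CRE among the windows of the 8 matched members, 48 bases before its start, and 1.55% of 32851 mouse windows of this length held that motif. The shorter motif was present 18 bases before the start of Cort, 47 before that of Cck, 79 before that of Vip and 35 before the third start of Bdnf, against 17.8% of all windows, while the windows of the other 6 Bdnf starts held none of the 3 motifs, and Tac1 held it at 197 and 43 bases. The E-box, present in 6.02% of windows, was found 66 bases before the start of Cck and 61 before that of Tac1, while the windows of Npy and Pdyn held no motif of the 3. These matches describe the letters only, and genes that were lower after LPS and the higher gene Vip both held the shorter motif.

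The LPS comparisons ask how these genes changed after LPS at each time of day. At ZT1, 3 members fell (Sst, Npy and Cck) and 1 rose (Vip) by limma's test at an adjusted p under 0.05, against 5.15% of all tested genes lower and 11.1% higher. At ZT13, 5 fell (Sst, Cort, Npy, Cck and Bdnf) and 1 rose (Pdyn), against 9.4% of all genes lower and 19.2% higher. The median log2 difference of the members was -0.28 at ZT1 and -0.31 at ZT13, beside 0.04 and 0.05 over all tested genes. Taking both times in one fit, 6 members fell and 2 rose, with 12.3% of all genes lower and 24.5% higher, and Tac1 and Penk did not pass the test. All 10 LPS libraries lay below all 6 PBS libraries for 5 members (Sst, Cort, Npy, Cck and Crh), which 3.64% of all genes also showed, and no member lay wholly above, which 8.64% of genes did. The split of calls over all genes depended on scaling, from 2089 higher and 972 lower at ZT1 to 1656 and 1390 with median-of-ratios factors, and from 3629 and 1772 at ZT13 to 2842 and 2831, while the members stood at 1 higher and 4 lower and at 1 higher and 5 lower with those factors. Quantile normalization gave 1493 higher and 1426 lower at ZT1 and 2540 and 3106 at ZT13, with 0 and 1 members higher and 5 and 6 lower.

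**Figure D1:**
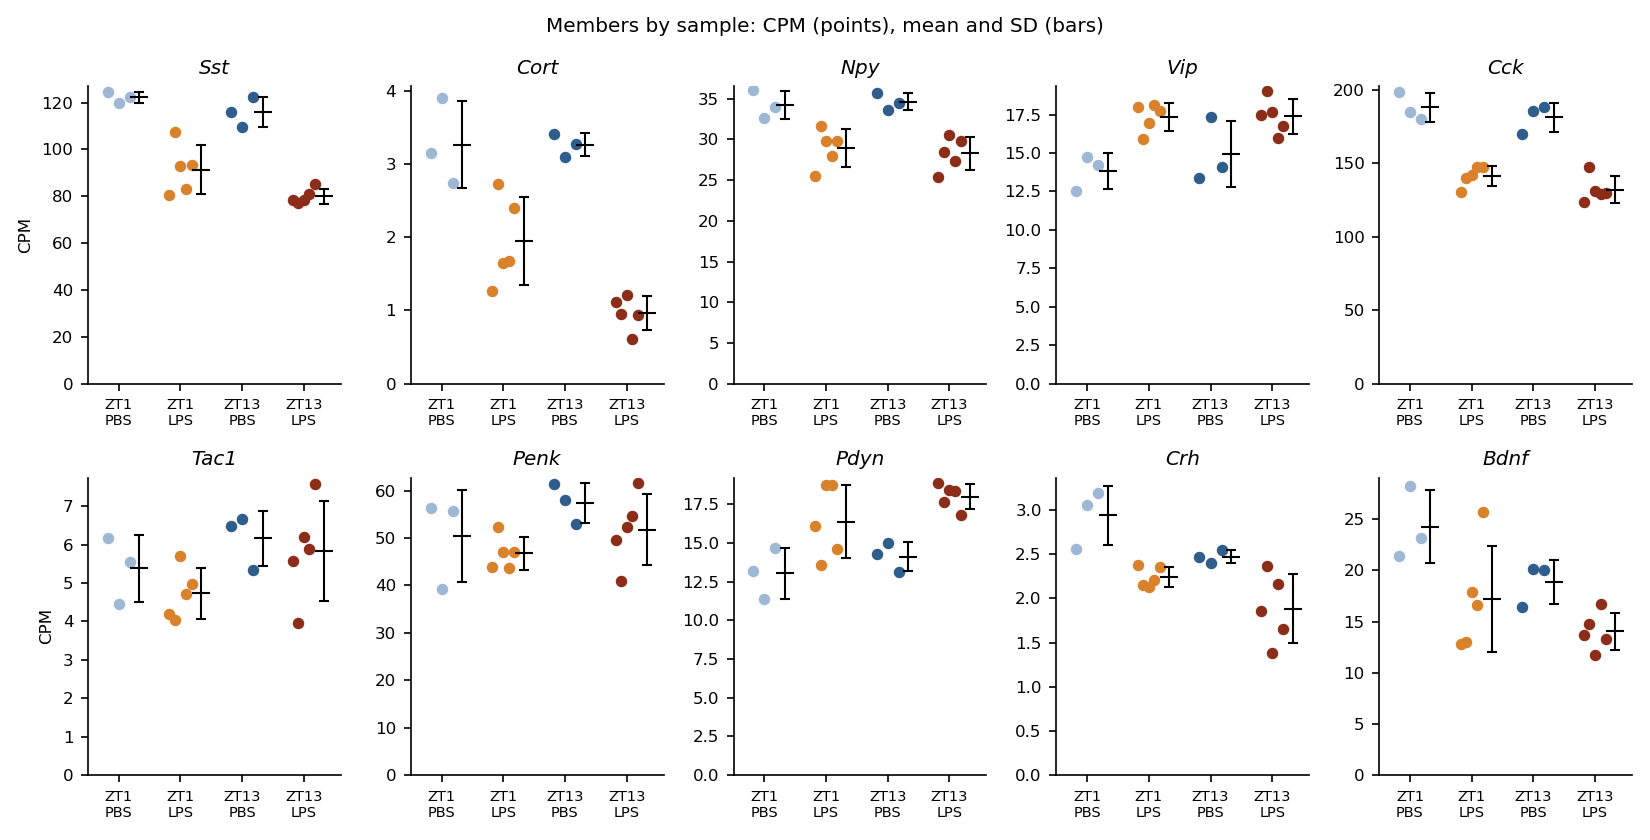
CPM of each of the 10 genes in each of the 16 libraries, by group (x axis), with each y axis starting at 0. Points are libraries, and the bar beside each group is its mean and SD. The 10 LPS libraries lie below the 6 PBS libraries for Sst, Cort, Npy, Cck and Crh, while the PBS and LPS libraries of Tac1 and Penk overlap at both times.

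Sst (ENSMUSG00000004366, chr16:23889573-23890958, minus strand, GRCm38) encodes somatostatin, an inhibitory peptide of dendrite-targeting interneurons, and it fell at both times. It stood at 125, 120 and 122 CPM in ZT1 PBS and at 80.4, 107, 92.8, 83.2 and 93.2 CPM in ZT1 LPS. In ZT13 PBS it was at 116, 110 and 123 CPM, and in ZT13 LPS at 78.6, 76.9, 78.5, 81.0 and 85.2 CPM. Every LPS library was below every PBS library, and the ZT13 LPS libraries lay closer together than those of ZT1 LPS. The log2 difference was -0.43 (SE 0.08, adjusted p = 0.0039) at ZT1 and -0.53 (SE 0.05, adjusted p = 1.0e-06) at ZT13, which is 25.3% and 31.1% below the PBS mean. The interaction, the ZT13 difference minus the ZT1 difference, was -0.11 (95% interval -0.31 to 0.10, adjusted p = 0.80).

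Cort (ENSMUSG00000028971, chr4:149125034-149126763, minus strand) encodes cortistatin, a peptide closely related to somatostatin that binds the same receptors, and it showed the largest fold difference of the 10 at both times. It was at 3.16, 3.90 and 2.74 CPM in ZT1 PBS and at 1.26, 2.73, 1.65, 1.68 and 2.40 CPM in ZT1 LPS. In ZT13 PBS it was at 3.42, 3.10 and 3.27 CPM, and in ZT13 LPS at 1.11, 0.95, 1.22, 0.61 and 0.94 CPM, which was 16 to 29 reads per library. No LPS library reached the lowest PBS library, though the highest ZT1 LPS library came within 0.01 CPM of it. All 5 ZT13 LPS libraries were below all 5 ZT1 LPS libraries, but by a narrow margin. ZT13 LPS replicate 3 was at 1.22 CPM (29 reads) and ZT1 LPS replicate 1 at 1.26 CPM (27 reads). The ZT13 mean was 70.5% below PBS (log2 difference -1.38, SE 0.16, adjusted p = 2.1e-05). The ZT1 mean was 40.4% below PBS (log2 difference -0.65, SE 0.20), which missed the threshold (adjusted p = 0.0504). Across alternative fits this adjusted p ran from 0.00999 with sample quality weights to 0.19 without ZT1 PBS replicate 2. The call was made in 2 of 8 fits that each left out 1 library and in 6 of 11 other settings.

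Relative to Sst in the same library, a pair chosen after its values were seen and so given without a test, Cort amounted to 2.67% ± 0.52 (SD) of Sst CPM in ZT1 PBS, 2.10% ± 0.45 in ZT1 LPS, 2.81% ± 0.14 in ZT13 PBS and 1.21% ± 0.31 in ZT13 LPS. The Cort share was lowest in the ZT13 LPS libraries, at 0.75% to 1.55%, just under the ZT1 LPS range of 1.57% to 2.58%. The ZT13 LPS range also lay below both PBS ranges. The ZT1 LPS range overlapped that of ZT1 PBS (2.24% to 3.25%), though its mean was lower. Cenps, a centromere protein gene 358 bases from Cort on the same strand, was at 1.12 ± 0.45 CPM in ZT13 PBS and 1.69 ± 0.15 CPM in ZT13 LPS, the direction opposite to that of Cort (log2 difference 0.47, adjusted p = 0.076).

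Npy (ENSMUSG00000029819, chr6:49822710-49829507, plus strand) encodes neuropeptide Y, which is co-expressed with Sst in part of the interneurons and damps excitatory release, and its fall was the smallest of those called. It was at 36.05, 32.6 and 34.0 CPM in ZT1 PBS and at 25.5, 31.7, 29.8, 28.0 and 29.8 CPM in ZT1 LPS. It was at 35.8, 33.6 and 34.5 CPM in ZT13 PBS and at 25.4, 28.4, 30.6, 27.4 and 29.8 CPM in ZT13 LPS. All LPS libraries were below all PBS libraries, by a narrow margin at ZT1. The log2 difference was -0.24 (SE 0.07, adjusted p = 0.042) at ZT1 and -0.29 (SE 0.06, adjusted p = 0.0030) at ZT13. The ZT1 call held in 2 of 8 fits that each left out 1 library, with adjusted p up to 0.18 without ZT1 PBS replicate 1. It held in 7 of 12 other settings. Scaling to neuronal genes ended the calls at ZT1 (log2 difference -0.10, adjusted p = 0.31), at ZT13 (-0.13, adjusted p = 0.12) and over both times (-0.11, adjusted p = 0.052).

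Vip (ENSMUSG00000019772, chr10:5639218-5647617, plus strand) encodes vasoactive intestinal peptide, made by interneurons that mainly inhibit the Sst class, and it went the other way. It stood at 12.5, 14.7 and 14.2 CPM in ZT1 PBS and at 18, 15.9, 16.9, 18.1 and 17.8 CPM in ZT1 LPS. It stood at 13.4, 17.3 and 14.1 CPM in ZT13 PBS and at 17.5, 19, 17.7, 16 and 16.7 CPM in ZT13 LPS. The ZT1 groups did not overlap, whereas ZT13 PBS replicate 2 lay inside the range of the ZT13 LPS libraries. Vip rose at ZT1 (log2 difference 0.32, SE 0.08, adjusted p = 0.015) and over both times (0.27, SE 0.06, adjusted p = 0.0013). The ZT1 call held in 7 of 8 fits without 1 library (lost without ZT1 PBS replicate 1, adjusted p = 0.081) and in 10 of 12 other settings, with losses under quantile normalization (0.22, adjusted p = 0.058) and with the replicate number as a block (0.29, adjusted p = 0.10). The ZT13 difference of 0.22 (SE 0.09) missed the threshold (adjusted p = 0.076) and passed it without ZT13 PBS replicate 2 (0.33, adjusted p = 0.011), one of 8 such fits whose adjusted p ran up to 0.31. The interaction was -0.10 (95% interval -0.35 to 0.15).

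Crh (ENSMUSG00000049796, chr3:19693401-19695396, minus strand) encodes corticotropin-releasing hormone, the stress peptide of the hypothalamus that a subset of cortical interneurons also makes. It was at 2.56, 3.06 and 3.20 CPM in ZT1 PBS, against 2.38, 2.15, 2.13, 2.21 and 2.36 CPM in ZT1 LPS. It was at 2.47, 2.41 and 2.55 CPM in ZT13 PBS, against 1.86, 2.36, 1.38, 2.16 and 1.66 CPM in ZT13 LPS. The PBS and LPS libraries did not overlap, but the gap between 2.36 and 2.41 CPM at ZT13 was small beside the spread of the LPS libraries. Crh fell over both times (log2 difference -0.33, SE 0.09, adjusted p = 0.0093), while neither time passed alone (adjusted p = 0.095 at ZT1 and 0.13 at ZT13). With scaling to neuronal genes the difference over both times was -0.18 and was not called (adjusted p = 0.12).

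Cck (ENSMUSG00000032532, chr9:121489824-121495694, minus strand) encodes cholecystokinin, the most abundant member per library, and it fell at both times. It was at 199, 185 and 180 CPM in ZT1 PBS and at 131, 140, 142, 147 and 147 CPM in ZT1 LPS. It was at 170, 186 and 188 CPM in ZT13 PBS and at 123, 147, 131, 129 and 130 CPM in ZT13 LPS. The highest LPS library was at 147 CPM and the lowest PBS library at 170 CPM. The log2 difference was -0.41 (SE 0.05, adjusted p = 2.5e-04) at ZT1 and -0.46 (SE 0.05, adjusted p = 2.0e-05) at ZT13, with an interaction of -0.05 (95% interval -0.21 to 0.12). Sst, Cck and Pdyn were called at ZT13 in every fit tried, as was Cort in every fit that tested it, and Cck was also called in every fit at ZT1.

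Tac1 (ENSMUSG00000061762, chr6:7554879-7565834, plus strand), the precursor gene of substance P, did not separate the groups. It was at 6.16, 4.44 and 5.56 CPM in ZT1 PBS and at 4.20, 4.03, 5.70, 4.73 and 4.98 CPM in ZT1 LPS. It was at 6.49, 6.66 and 5.33 CPM in ZT13 PBS and at 5.58, 3.95, 6.21, 5.87 and 7.57 CPM in ZT13 LPS. The difference over both times was -0.13 on the log2 scale (95% interval -0.36 to 0.10, adjusted p = 0.39), so a fall as large as that of Npy was not outside the interval. Tac1 was called lower over both times in 1 of 11 other settings, quantile normalization (adjusted p = 0.039). It was called in 0 of 16 fits that each left out 1 library.

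Penk (ENSMUSG00000045573, chr4:4133531-4138819, minus strand) and Pdyn (ENSMUSG00000027400, chr2:129686565-129699844, minus strand) encode the opioid precursors of the enkephalins and the dynorphins. Penk was at 56.3, 39.3 and 55.8 CPM in ZT1 PBS and at 43.9, 52.3, 47.1, 43.7 and 46.9 CPM in ZT1 LPS. Penk was at 61.3, 58.0 and 52.9 CPM in ZT13 PBS and at 49.6, 41.0, 52.4, 54.6 and 61.5 CPM in ZT13 LPS. Its groups overlapped at both times, and the difference over both times was -0.12 (95% interval -0.30 to 0.05, adjusted p = 0.26). Without ZT1 PBS replicate 2, the library with the lowest Penk, the difference was -0.21 and was called (adjusted p = 0.032, against up to 0.52 in the 15 other such fits). At ZT13 Penk was called lower in 1 of 12 other settings, with the replicate number as a block (adjusted p = 0.022). A830012C17Rik overlaps Penk on the other strand and was at 0.30 to 0.97 CPM. Penk was above that level in every library.

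Pdyn was at 13.2, 11.4 and 14.7 CPM in ZT1 PBS and at 16.1, 13.6, 18.8, 18.8 and 14.6 CPM in ZT1 LPS. Pdyn was at 14.3, 15 and 13.1 CPM in ZT13 PBS and at 18.9, 17.7, 18.4, 18.3 and 16.8 CPM in ZT13 LPS. The ZT13 groups did not overlap and the ZT1 groups did. Pdyn rose at ZT13 (log2 difference 0.34, SE 0.07, adjusted p = 0.0016), and its ZT1 difference of 0.31 (SE 0.12) missed the threshold (adjusted p = 0.10). The interaction of 0.03 (95% interval -0.27 to 0.33) gave no call of a difference between the times.

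Summed striatal medium spiny neuron markers, a list without the members themselves, ran from 368 to 467 CPM in ZT1 PBS, 441 to 492 in ZT1 LPS, 403 to 491 in ZT13 PBS and 442 to 580 in ZT13 LPS, and no marker was at or under 3 reads in all libraries. Their lowest value belonged to ZT1 PBS replicate 2, the library with the lowest Penk, and 1 of 10 tested markers was called at each time (Ppp1r1b, a dopamine-signalling gene, log2 difference 0.47 at ZT1 and 0.52 at ZT13, both higher). Of all tested genes, 11.1% were higher at ZT1 and 19.2% at ZT13. Outside the members, the gene whose level went most closely with that of Penk over the 16 libraries was Drd2, the D2 dopamine receptor of enkephalin neurons (Pearson r = 0.81). After group means were taken away, Drd2 (r = 0.88) was again among the 3 genes most like Penk, and Pde10a (r = 0.83) was among those most like Tac1. Penk and Tac1 themselves went together about as closely over the libraries (r = 0.81, and r = 0.75 after group means were taken away). The part of striatal tissue in the values of Penk, Tac1 and Pdyn was not tested.

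Bdnf (ENSMUSG00000048482, chr2:109674700-109727007, plus strand) supports synapses and dendrites through its receptor TrkB. It was at 21.4, 28.2 and 23.1 CPM in ZT1 PBS and at 12.8, 13, 17.9, 16.6 and 25.7 CPM in ZT1 LPS. It was at 16.4, 20.2 and 19.99 CPM in ZT13 PBS and at 13.7, 14.8, 11.8, 16.7 and 13.2 CPM in ZT13 LPS. ZT1 LPS replicate 5 lay within the ZT1 PBS range while the other 4 ZT1 LPS libraries lay below it, and ZT13 LPS replicate 4 just passed the lowest ZT13 PBS library. Bdnf fell at ZT13 (log2 difference -0.42, SE 0.10, adjusted p = 0.0080) and over both times (-0.47, SE 0.12, adjusted p = 0.0045). At ZT1 the difference of -0.52 (SE 0.19) missed the threshold (adjusted p = 0.089) and passed it without ZT1 LPS replicate 5 (-0.67, adjusted p = 0.0052), with adjusted p up to 0.29 over the 8 such fits. Scaled to neuronal genes, the ZT13 difference was -0.25 and was not called (adjusted p = 0.060). The antisense gene Gm45346 overlaps Bdnf at 0.12 to 0.57 CPM.

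**Figure D2:**
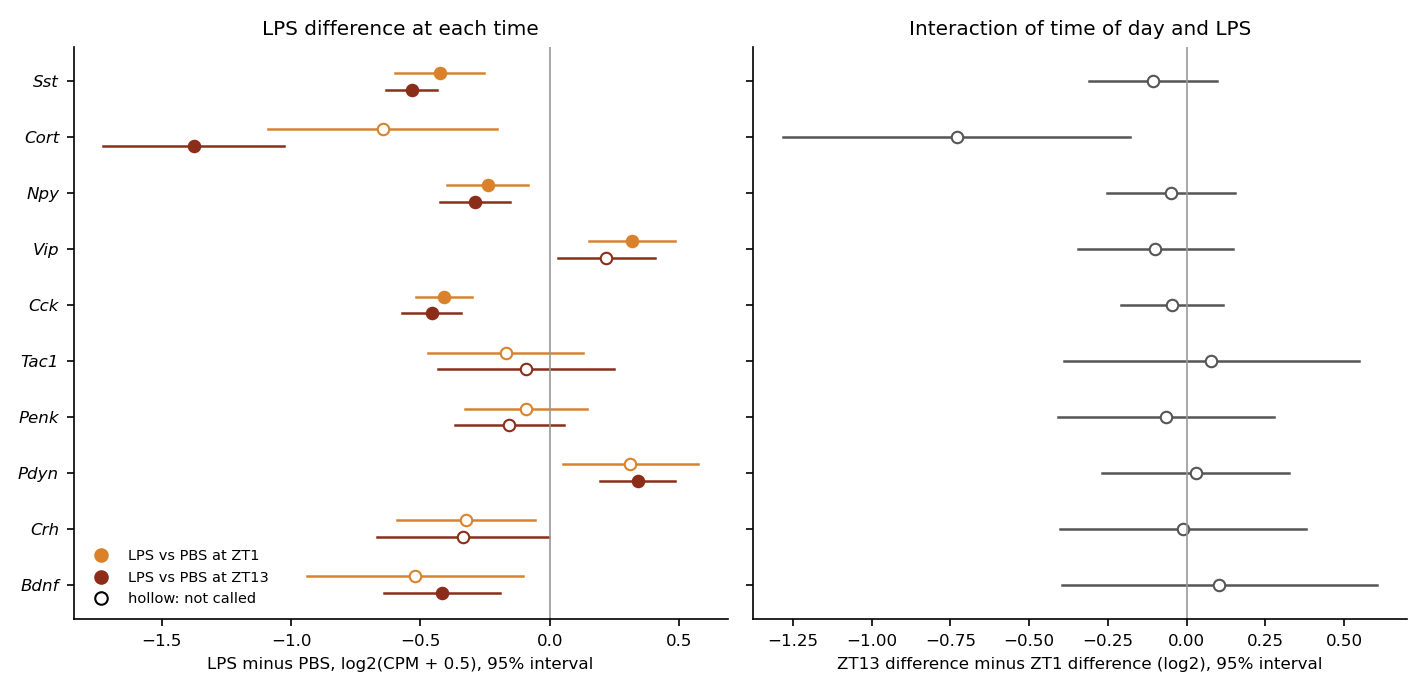
Left, the LPS minus PBS difference in log2(CPM + 0.5) for each gene at ZT1 and ZT13, and right, the interaction (ZT13 difference minus ZT1 difference). Points are limma estimates, lines are 95% intervals, filled points are called at an adjusted p under 0.05 and hollow points are not. Sst, Npy and Cck are called lower at both times, Vip and Pdyn lie above 0, and no interaction is called, with Cort farthest from 0 at -0.73.

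Time of day, of treatment and of collection alike, was compared within each treatment. In PBS-treated mice 0 of 10 members differed between ZT13 and ZT1 in limma's test, where 0.52% of all genes did. An unadjusted p under 0.05 was found for 2543 of 18859 genes and for 1 of 10 members. That member was Bdnf, at 24.3 ± 3.55 CPM in ZT1 PBS and 18.9 ± 2.13 in ZT13 PBS (SD), a log2 difference of -0.35 (SE 0.11, adjusted p = 0.22). Cort had equal means of 3.26 CPM in both PBS groups. In LPS-treated mice 0 members were called, where 0.0212% of all genes were. An unadjusted p under 0.05 was found for 1998 of 18859 genes and for 2 of 10 members. These were Cort and Sst, at log2 differences of -0.72 (SE 0.18, adjusted p = 0.15) and -0.18 (SE 0.07, adjusted p = 0.33).

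An exact permutation test of the mean CPM of Cort between ZT13 LPS and ZT1 LPS gave a two-sided p of 0.0079. This is the smallest that 5 against 5 libraries allow, before any correction for the number of genes. It rests on groups whose nearest libraries were at 1.22 CPM (ZT13 LPS) and 1.26 CPM (ZT1 LPS). The test was run for all 10 members, and gave 0.056 for Sst and 0.10 to 0.96 for the others. Cort is thus the lowest of 10 such tests. Without ZT1 LPS replicate 1 the Cort difference was called by limma's test (adjusted p = 0.032, against up to 0.35 in the other fits without 1 library). For the interaction, 0 members were called, where 0.159% of all genes were. An unadjusted p under 0.05 was found for 1745 of 18859 genes and for 1 of 10 members. That was Cort, with -0.73 (SE 0.26, 95% interval -1.28 to -0.18, adjusted p = 0.36), so a larger fall of Cort at ZT13 was not established by this test. For the other 9 members the 95% interval of the interaction spanned 0. That of Cck ran from -0.21 to 0.12, and that of Bdnf, from -0.40 to 0.61, held values as large as its LPS difference.

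The receptors for these peptides fell or did not pass the test, and none rose with the deposited scaling (1 was called higher at each time with quantile normalization). Of 21 tested receptor genes (of 26 listed), 5 fell at ZT1 and 7 at ZT13, with a median log2 difference of -0.16 and -0.12 beside 0.04 and 0.05 over all genes. For this and the lists below, the shares over all genes with the deposited scaling were 5.15% lower and 11.1% higher at ZT1. They were 9.4% lower and 19.2% higher at ZT13. Sstr2, a somatostatin and cortistatin receptor, was at 21.7 ± 1.54 CPM in ZT1 PBS and 14.8 ± 2.53 in ZT1 LPS, and at 19.1 ± 1.70 in ZT13 PBS and 12.5 ± 1.13 in ZT13 LPS (SD). Its log2 differences were -0.55 (adjusted p = 0.0097) and -0.59 (adjusted p = 1.2e-04). Among other somatostatin receptors Sstr1 fell by 0.26 and Sstr3 fell by 0.35 on the log2 scale at ZT1, and both were also lower at ZT13.

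Oprd1, the delta opioid receptor for enkephalins, fell by 0.40 at ZT1 and 0.30 at ZT13 on the log2 scale. Cckbr, the cholecystokinin receptor of brain, differed by -0.43 at ZT1 (adjusted p = 0.038) and -0.41 at ZT13 (adjusted p = 9.5e-04). Crhr1, the main CRH receptor, fell at ZT13 (-0.38, adjusted p = 0.0016). Ntrk2, which encodes TrkB, was at 823 ± 14.8 CPM in ZT1 PBS and 798 ± 70.9 in ZT1 LPS, and its difference over both times was -0.07 (95% interval -0.16 to 0.03). Scaling to neuronal genes moved the median of all genes to 0.18 at ZT1 and 0.21 at ZT13. Of 18859 genes, it called 6208 higher and 305 lower at ZT1, and 8889 higher and 520 lower at ZT13. With it, 2 receptors were lower and 1 higher at ZT1, and 3 were lower and 3 higher at ZT13.

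Genes for peptide processing and dense-core vesicles divided between the directions. Of 18 tested, 4 fell and 2 rose at ZT1, and 6 fell and 2 rose at ZT13. Vgf, which encodes a granin-like precursor induced by BDNF, was at 332 ± 5.27 CPM in ZT1 PBS, 228 ± 39.7 in ZT1 LPS, 288 ± 33.8 in ZT13 PBS and 191 ± 7.30 in ZT13 LPS (log2 difference -0.56 and -0.59, adjusted p = 0.0059 and 5.6e-06). The granin gene Chga fell by 0.34 on the log2 scale at both times, and the vesicle protein gene Ptprn fell by 0.16 and 0.19. Pcsk1, a prohormone convertase, fell at ZT13 (-0.35, adjusted p = 0.014).

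The genes that rose were Furin, a convertase found in most cell types (0.25 at ZT1 and 0.47 at ZT13), and Scg5, the chaperone of convertase PC2 (0.26 and 0.33). Under median-of-ratios scaling the split was 2 higher and 11 lower at ZT13, where 2842 of 18859 genes were higher and 2831 lower. Under scaling to neuronal genes it was 7 higher and 2 lower at each time. Of all genes, 6208 were then higher and 305 lower at ZT1, and 8889 and 520 at ZT13. Vgf and Chga were lower under both scalings.

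Among other peptides and growth factors, 1 of 12 tested genes rose and 2 fell at ZT1, and 1 rose and 4 fell at ZT13. Trh, the precursor of thyrotropin-releasing hormone, rose from 4.78 ± 0.66 to 6.95 ± 1.03 CPM at ZT1 and from 5.12 ± 1.33 to 8.60 ± 0.89 CPM at ZT13 (log2 difference 0.49 and 0.71, adjusted p = 0.028 and 0.0012). Crhbp, whose product binds and sequesters CRH and which many Sst interneurons express, fell from 12.2 ± 1.02 to 8.87 ± 1.09 CPM at ZT1 and from 12.3 ± 0.27 to 8.76 ± 0.65 CPM at ZT13 (-0.44 and -0.47, adjusted p = 0.017 and 5.4e-04). The activity-regulated peptide gene Adcyap1 (PACAP, -0.47), Grp (-0.53) and the nociceptin gene Pnoc (-0.38) fell at ZT13, and Cartpt fell at ZT1 (-0.46). With scaling to neuronal genes, ZT1 had 2 higher and none lower, and ZT13 had 1 higher and 2 lower. Of all 18859 genes, 6208 and 8889 were then higher and 305 and 520 lower.

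Of 24 tested genes that define GABAergic interneurons, 3 fell and 1 rose at ZT1, and 7 fell and 4 rose at ZT13, with medians of -0.02 and -0.09. Elfn1, a synaptic protein that marks Sst interneurons, fell by 0.50 and 0.40 on the log2 scale. Slc32a1, the vesicular GABA transporter, fell by 0.21 and 0.29, and Reln fell by 0.30 at ZT13. The GABA-synthesising enzyme genes did not pass the test, with log2 differences of Gad1 at -0.09 (SE 0.05) and -0.06 (SE 0.03) and Gad2 at -0.02 (SE 0.05) and -0.11 (SE 0.05). Maf and Htr3a were among the genes that rose at ZT13.

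When libraries were scaled to this GABAergic list, 3 members were called at ZT1 (Sst and Cck lower, Vip higher) and 6 at ZT13. With the deposited scaling 4 and 6 were called, the ZT1 call of Npy being the one lost. Of 18859 genes, scaling to the GABAergic list called 1979 higher and 748 lower at ZT1, and 3837 higher and 1395 lower at ZT13. Scaled instead to the pan-neuronal list, 2 members were lower (Sst and Cck) and 2 higher (Vip and Pdyn) at ZT1. At ZT13, 3 were lower (Sst, Cort and Cck) and 2 higher. Of 18859 genes, this scaling called 6208 higher and 305 lower at ZT1, and 8889 higher and 520 lower at ZT13. Pan-neuronal markers themselves were lower in 4 of 12 cases at ZT1 and 9 of 12 at ZT13, with Tubb3, a neuronal tubulin, falling by 0.55 and 0.65 and medians of -0.10 and -0.16. Summed astrocyte markers went from a range of 5189 to 5367 CPM in ZT1 PBS to 5664 to 6204 in ZT1 LPS, and from 5246 to 5620 in ZT13 PBS to 5974 to 6521 in ZT13 LPS, and 4 and 5 of 8 were called higher, with Slc1a2 lower at ZT13. Endothelial markers were called higher in 5 of 8 cases at ZT1, where Flt1 was lower, and 8 of 8 at ZT13. What part these shifts in other transcripts had in the CPM of the peptide genes was not tested beyond the scalings given.

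The genes that neurons switch on with activity were lower after LPS as a group. Of 18 early response genes, 11 fell at ZT1 and 13 at ZT13, none rose, and the medians were -0.47 and -0.62. Npas4, a factor that binds promoters of Bdnf, was at 61.2 ± 12.5 CPM in ZT1 PBS, 32.7 ± 8.39 in ZT1 LPS, 51.0 ± 2.37 in ZT13 PBS and 26.2 ± 6.89 in ZT13 LPS (log2 difference -0.91 and -0.99, adjusted p = 0.0054 and 6.4e-04). Fos fell by 0.86 and 1.12 on the log2 scale. Scaled to neuronal genes, 9 and 4 of the 18 were lower and none was higher. Of all 18859 genes, 305 and 520 were then lower and 6208 and 8889 higher. Summed over the list, ZT13 PBS replicate 1 was at 1371 CPM while the other PBS libraries were at 2402 to 2938, and that library also had the lowest Bdnf of the PBS libraries.

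The 3 genes most like Bdnf in level over the 16 libraries were Nectin1 (r = 0.95), Nptx2 (r = 0.95), an activity-induced pentraxin gene, and Adcyap1 (r = 0.94), and the same 3 were most like it after group means were taken away (r = 0.91 to 0.93). Of the 15 CREB-pathway and Bdnf regulator genes, 1 fell (Npas4) and 2 rose (Rps6ka5 and Bhlhe40) at ZT1, and 2 fell (Mef2c and Npas4) and 2 rose (Rps6ka5 and Crtc2) at ZT13. With scaling to neuronal genes, 8 rose and 1 fell at ZT1 and 11 rose and 2 fell at ZT13. Of all 18859 genes, 6208 were then higher and 305 lower at ZT1, and 8889 higher and 520 lower at ZT13.

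**Figure D3:**
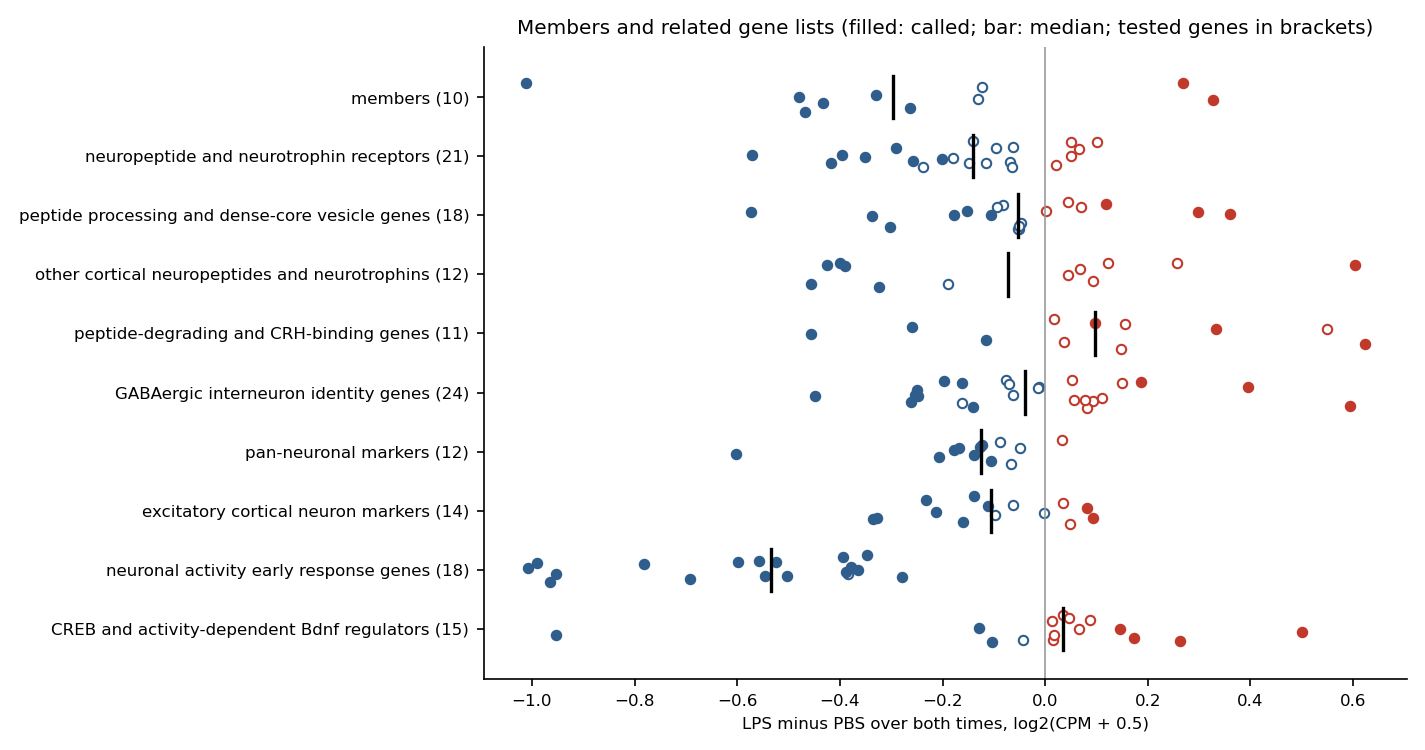
LPS minus PBS difference over both times in log2(CPM + 0.5) (x axis) for the members and for 9 lists of related genes (rows), 1 point per tested gene. Filled points are called at an adjusted p under 0.05, hollow points are not, blue is lower and red is higher after LPS, and the black bar is the median of the list. Early response genes lie wholly below 0 with a median of -0.53, the members have a median of -0.30, and the regulator list has a median of 0.04.

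Over the 16 libraries the genes most like the other members in level included Ncan, Gnaz and Hey1 for Sst (r = 0.96 to 0.97), Tspan7, Nptxr and Hpcal4 for Cort (0.93 to 0.95), and Acot7 and Syngr3 for Cck (0.97 to 0.98). For Npy they included Gm49601, Gm1673 and Lrrc24 (0.93 to 0.94), for Vip Fam107a, Cyp2d22 and Pola1 (0.91 to 0.92), for Pdyn Diaph2, Kcnab2 and Nampt (0.90 to 0.94) and for Crh C130026L21Rik, Gabpb1 and Zfp532 (0.89 to 0.93). These correlations rest on the same 16 libraries, share the difference between LPS and PBS groups, and are the highest of 18859 genes. After group means were taken away, Sst went with Npy (r = 0.69) and Cort (r = 0.55), and against Vip (r = -0.61) and Pdyn (r = -0.54).

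**Figure D4:**
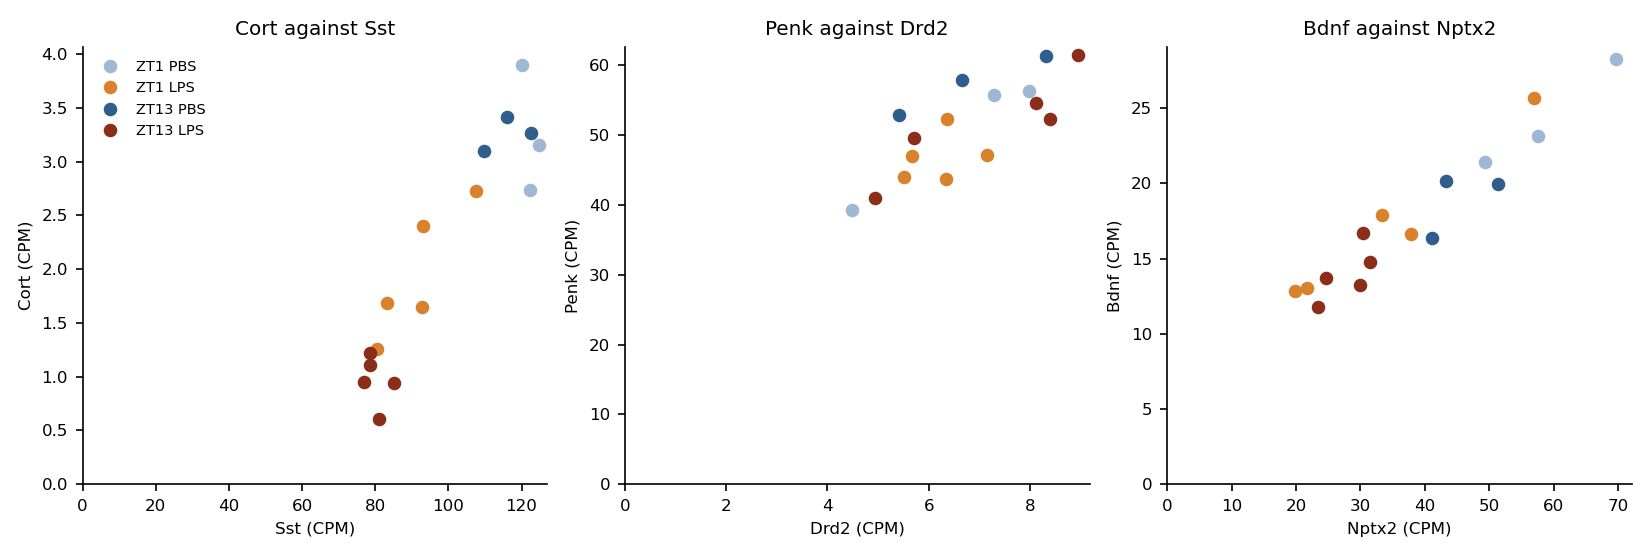
CPM of Cort against Sst, Penk against Drd2 and Bdnf against Nptx2, 1 point per library, coloured by group, with all axes starting at 0. In the left panel the 5 ZT13 LPS libraries hold the lowest Cort at about the Sst level of the lower ZT1 LPS libraries. Drd2 and Nptx2 were picked as genes outside the members most like Penk and Bdnf in these libraries. The trends in those panels are part of that choice.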

How the data were processed

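Cortex RNA of 16 mice was sequenced after rRNA depletion (KAPA RiboErase). The deposited table holds CPM per gene, made by the authors from reads processed, per the submitters' notes, with bcl2fastq and DRAGEN 4.0.3-8 on GRCm38. The counting tool and its strand setting are not given in the sources used here. Each library summed to 1000000 CPM over 55487 genes after 287 repeated lines were dropped. Only 80.7% to 82.4% of values up to 20 reads were whole reads (within 0.01), so no count test was run. CPM is a share of the library, so a rise in some transcripts lowers the rest. Since no source says that libraries of a group came from separate litters or batches, p-values measure the spread between these libraries.

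The 18859 genes that reached 1 CPM in 3 or more libraries were tested on log2(CPM + 0.5) with limma 3.58.1 (R 4.3.3) with an intensity trend, Benjamini-Hochberg adjustment and a threshold of 0.05, and the script was tested on simulated data. Log2 differences on this scale understate the change of low genes such as Cort. Each comparison of 2 groups used those groups, and the interaction and the difference over both times used all 16 libraries with 4 group means. An exact two-sided permutation test of mean CPM, unadjusted over genes, was run for every member in every comparison but the interaction. It is given only for ZT13 LPS against ZT1 LPS. Alternatives changed the pseudocount, filter, scaling, trend, weights, blocking or libraries, and scaling to GABAergic genes was added after seeing the data. Gene coordinates, exon lengths and overlaps came from GENCODE M21, and 250-base windows from RefSeq.

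All 10 members were named, with up to 4 called genes per list and comparison by adjusted p. Also named were the 3 genes outside the members most correlated with each member, and genes that check the labels. Mef2c, Gad1, Gad2, Ntrk2, Maf and Htr3a, and the pair of Cort and Sst, were singled out as defining genes or after their values were seen. The members and lists were chosen with earlier results of these data known. A few genes that this rule covers are not reported here.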

Additional observations from a re-analysis of the deposited data

How the results depend on the processing

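The ZT1 LPS comparison called 4 members, but 2 with no filter on low values (Vip and Cck), 8 with sample quality weights and 7 in one fit of all samples. Calls over all genes moved too, from 2089 higher and 972 lower of 18859 in the main fit. With no filter they were 1167 and 438 of 38565 genes. Quality weights gave 2707 and 1390 of 18859, and one fit of all samples gave 2709 and 1339. Leaving out 1 library gave 2 to 6 at ZT1, with 2 (Sst and Cck) without ZT1 PBS replicate 1, 6 to 7 at ZT13 and 8 to 9 over both times. ZT13 against ZT1 in LPS called 1 (Cort) in one fit of all samples and 0 to 1 when 1 library was left out, with 1 without ZT1 LPS replicate 1. That one fit called 114 of all genes higher and 8 lower, against 2 and 2 in the main fit. Time in PBS and the interaction gave 0 members in every fit. With the replicate number as a block (replicate block), 4 members were called at ZT1 (Sst, Cort, Cck and Bdnf), 8 at ZT13 and 8 over both times. Of 18859 genes, the block called 1688 higher and 949 lower at ZT1, and 3173 and 1507 at ZT13. Libraries that shared a number had correlations of -0.20 to 0.33 after group means were taken away. Those of libraries with different numbers were not computed, so whether numbers pair libraries was not settled. No called member changed direction in any fit. In 1328 values of a gene in an alternative fit, 28 calls were gained and 21 lost, and 43 values called in neither fit changed sign. A filter of 5 CPM left out Cort and Crh. Scaling to neuronal genes ended the calls of Npy at ZT1, at ZT13 and over both times, of Bdnf at ZT13 and of Crh over both times. At 16 to 29 reads a library, ZT13 LPS levels of Cort also carry counting error.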

Other observations

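Excitatory cortical neuron markers, which were not set against the members above, were called lower in 2 of 14 cases and higher in 2 at ZT1, and lower in 6 with none higher at ZT13. Beside this and the counts below, 5.15% of all genes were lower and 11.1% higher at ZT1, and 9.4% and 19.2% at ZT13. Over both times Neurod6 (log2 difference -0.33, SE 0.05) and the vesicular glutamate transporter gene Slc17a7 (-0.14, SE 0.03) were lower, and Camk2a (0.09, SE 0.02) was higher. Of 11 genes for peptide-degrading or CRH-binding proteins, 1 rose and 1 fell at ZT1 and 2 rose and 2 fell at ZT13. Ece1, the endothelin-converting enzyme that vessels and neurons express, rose from 64.2 ± 1.90 CPM in ZT13 PBS to 89.9 ± 3.22 in ZT13 LPS (SD, adjusted p = 9.8e-07), and Anpep rose over both times (0.62, SE 0.12).

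Oligodendrocyte markers were called lower in 2 of 8 cases and higher in 1 at ZT1, and lower in 5 and higher in 1 at ZT13. Microglial markers were called higher in 6 of 8 cases at each time, while P2ry12 was lower at both. Of 8 hippocampal markers, 1 was called higher and 1 lower at ZT1, and 2 were called lower at ZT13. Of 4 tested thalamic and hypothalamic markers, 1 was called higher at ZT1 and 3 at ZT13, with Prkcd higher at both times. Mef2c, an activity-regulated factor, was the only gene of the 9 lists related to the peptides with a called interaction (-0.29, SE 0.06, adjusted p = 0.039).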
